A study of Mus musculus with 3 samples.

Results

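The genes of MHC class II presentation are the 9 genes *H2-Aa*, *H2-Ab1*, *H2-Eb1*, *H2-DMa*, *H2-DMb1*, *H2-Oa*, *H2-Ob*, *Cd74*, and *Ciita*, chosen by symbol from the 28692 genes of the count tables. They were measured by single-cell RNA-Seq (scRNA-Seq) of whole lung, in which each captured transcript carries a unique molecular identifier (UMI), so that its copies are counted only once. The 3 libraries came from C57BL/6 mice kept in room air and taken on postnatal day 14, numbered mice 2, 3, and 4. The labels give no other allele or agent. All mice belong to 1 condition, so the comparisons are between cell types, and the mice are the replicates (*n* = 3).

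MHC class II molecules carry peptides from endocytosed proteins to the cell surface, where CD4+ T cells read them. A classical molecule is a pair of an α and a β chain. *Cd74* encodes the invariant chain, which fills the peptide groove until the molecule reaches the endosome. There H2-DM (*H2-DMa* and *H2-DMb1*) exchanges its last fragment for a peptide, and H2-O (*H2-Oa* and *H2-Ob*) inhibits H2-DM. *Ciita* encodes the coactivator that turns the other genes on through proteins bound at the X and Y boxes of their promoters. Dendritic cells, B cells, and macrophages are the professional presenting cells, and alveolar type II (AT2) cells, the surfactant-making epithelial cells of the lung, are known to carry class II too. In C57BL/6 mice the partner of *H2-Eb1*, the H2-E α chain, is not made, so the H2-E molecule is missing although *H2-Eb1* is transcribed.

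Of 9644 deposited cells with 71413428 UMIs, 7642 were kept, 2386 to 2655 per mouse, with a median of 6033.5 UMIs per cell (4853 to 7119 between mice). The cells fell into 31 clusters, which were built without the 9 genes. Of these, 26 were named from marker genes as 21 cell types, written as "-like", and 5 were left unnamed. The library pairs shared 2 to 5 cell barcodes, and 156 kept cells were marked as likely doublets. The number marked was fixed by an assumed rate of 0.8% per 1000 kept cells of a library, taking the highest doublet scores. The automatic threshold of the scoring method called 49. Levels are given as CPM, a gene's UMIs per 1000000 UMIs of the cell type, so 2 genes are compared only through the ratio of their UMIs between cell types. Levels are mean ± SD over the 3 mice. Dendritic-like cells (195 cells) carried all 9 of their marker genes at 2026 to 2504 CPM, and B-cell-like cells (1783 cells) all 8 of theirs at 18941 to 20344 CPM. AT2-like cells (1070 cells) carried the 8 AT2 markers at 214480 CPM in the larger of their clusters. T-cell-like cells (140 cells) and neutrophil-like cells (465 cells), which should lack class II in the mouse, served as background.

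Of the genes, 7 lie within the MHC on chromosome 17 (GRCm38, GENCODE M21). In order along it these are *H2-Oa* (34092340-34095234), *H2-DMa* (34119541-34139101), *H2-DMb1* (34153072-34160230), *H2-Ob* (34238903-34254414), *H2-Ab1* (34257689-34269419), *H2-Aa* (34282744-34287823), and *H2-Eb1* (34305867-34316674). All but *H2-Aa* are on the plus strand. *Ciita* is on chromosome 16 (10480059-10528418, plus strand). An exon of *H2-Oa* overlaps *BC051537*, an exon of *H2-DMa* overlaps *Brd2*, and an exon of *Ciita* overlaps *Dexi*, each on the other strand.

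RefSeq promoters of 300 bases (GRCm38.p6) were at hand for 6 of the 9 genes, and *H2-Ab1*, *Cd74*, and *Ciita* had no entry. They were searched on both strands for the Y box core TGATTGG, a consensus of the X box with 11 positions, and the cyclic AMP response element TGACGTCA. The Y box core was in 5 of the 6 promoters and in 7.82% of all 32851 promoters. The X box was in 3 of the 6, those of *H2-Eb1*, *H2-DMb1*, and *H2-Ob*, and in 0.137% of all promoters. It lay 15 to 18 bases before the Y box there. The matches of 4 genes are shown, those of both H2-O genes and 2 of the classical chains. Windows with many bases inside a GENCODE exon of their gene were not shown, which left out *H2-DMb1*. Capitals mark the matches, and each run covers positions -95 to -39 from the RefSeq start site, 5′ to 3′ on the strand of the gene.
*H2-Aa*, chr17:34287862-34287918, minus strand: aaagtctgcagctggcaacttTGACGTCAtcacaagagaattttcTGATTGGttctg
*H2-Eb1*, chr17:34305772-34305828, plus strand: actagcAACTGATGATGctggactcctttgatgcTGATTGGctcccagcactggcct
*H2-Oa*, chr17:34092284-34092340, plus strand: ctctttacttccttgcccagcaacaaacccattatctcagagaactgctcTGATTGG
*H2-Ob*, chr17:34238810-34238866, plus strand: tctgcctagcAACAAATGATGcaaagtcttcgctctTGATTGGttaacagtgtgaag
The *H2-Aa* run holds TGACGTCA, a motif of 1.79% of all promoters, upstream of its Y box. The *H2-Oa* run holds the Y box alone, and its last base is the first base of the gene in GENCODE, where the start lies further upstream than in RefSeq. Neither of the 2 *H2-DMa* promoter entries held any of these letters, which says only that they are not in those windows.

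By CPM, class II transcripts were highest in dendritic-like cells, followed by B-cell-like and then AT2-like cells, for the classical chains, *Cd74*, and *Ciita*. These 3 cell types together held most UMIs of each of these genes. By median UMIs per cell, which depend on depth, AT2-like cells were not below B-cell-like cells in *Cd74* or the classical chains. The medians in dendritic-like, AT2-like, and B-cell-like cells were 99, 55, and 35 for *Cd74* and 31, 12, and 7 for *H2-Aa*. They were 41, 8, and 7 for *H2-Ab1* and 23, 5, and 5 for *H2-Eb1*. *Cd74* UMIs were split about evenly between B-cell-like cells (40.0 ± 10.4%) and AT2-like cells (38.9 ± 10.8%), and dendritic-like cells held 16.3 ± 2.41%. The H2-O genes had another pattern, with 80.7 ± 3.15% of *H2-Oa* and 90.8 ± 2.15% of *H2-Ob* UMIs in B-cell-like cells.

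**Figure D1:**
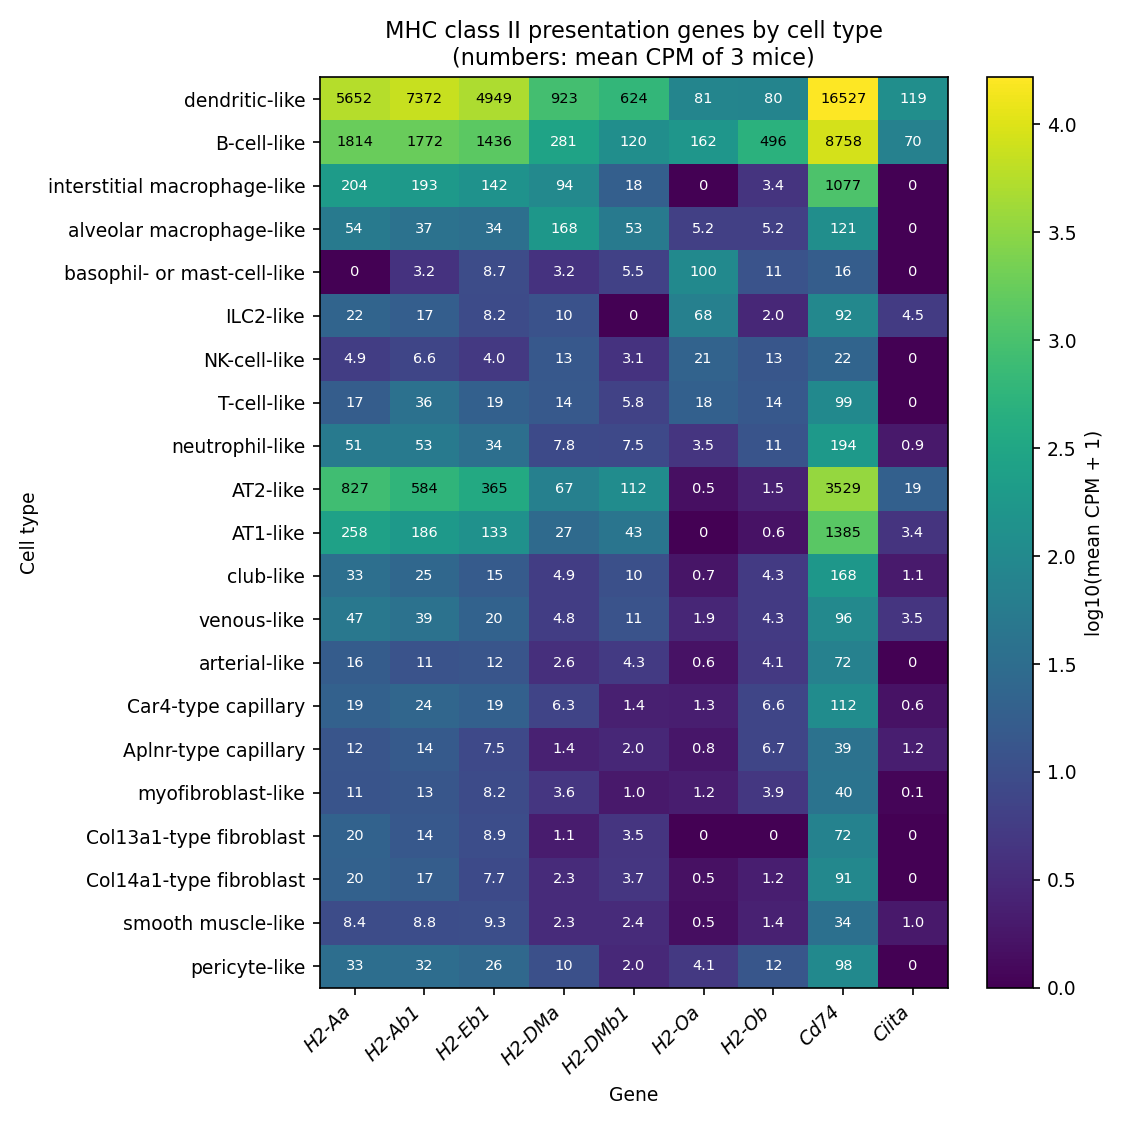
Mean CPM over 3 mice of the 9 genes (columns) in the 21 named cell types (rows), with color on a log10(CPM + 1) scale and the mean CPM printed in each cell. Dendritic-like, B-cell-like, and AT2-like cells stand out for the classical chains and *Cd74* (16527, 8758, and 3529 CPM), and *H2-Oa* and *H2-Ob* are near 0 in AT2-like cells.

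*H2-Ab1*, the β chain of the H2-A molecule, was at 8450, 7355, and 6312 CPM in the dendritic-like cells of mice 2, 3, and 4. B-cell-like cells had 1925, 1711, and 1680 CPM, and AT2-like cells 640, 604, and 507 CPM. The 3 types did not overlap in any mouse. Its partner *H2-Aa* was at 5652 ± 435, 1814 ± 147, and 827 ± 68.0 CPM in these types, and *H2-Eb1* at 4949 ± 881, 1436 ± 121, and 365 ± 26.7 CPM. The same order held for both. Next came AT1-like cells (*H2-Aa* 258 ± 24.4 CPM) and interstitial macrophage-like cells (204 ± 185 CPM), which did not differ beyond their spread. The AT1-like value rested on a cluster of 37 cells that also carried AT2 markers (692 of 722 UMIs), and the other 129 AT1-like cells had 41.3, 21.0, and 9.51 CPM. In the other named types *H2-Aa* was at most 54.2 ± 74.7 CPM, the value of alveolar macrophage-like cells, and T-cell-like cells had 16.8 ± 20.6 and neutrophil-like cells 50.9 ± 5.76 CPM.

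The balance of the chains differed between the types. *Cd74*, the partner of them all, lies outside the MHC, on chromosome 18. *H2-Aa* UMIs per 100 *H2-Ab1* UMIs were 139, 139, and 149 in AT2-like cells, 103, 101, and 103 in B-cell-like cells, and 70.8, 79.0, and 81.8 in dendritic-like cells. The 3 ranges did not overlap. *Cd74* UMIs per 100 UMIs of the 3 classical chains were 199 ± 1.44 in AT2-like cells, 174 ± 3.71 in B-cell-like cells, and 92.0 ± 1.69 in dendritic-like cells, again with no overlap. Thus dendritic-like cells had the most *Cd74* but the least of it per classical chain. These ratios were not tested, since an exact two-sided permutation test of 3 mice against 3 gives no p under 0.1.

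Shares of cells with a UMI depend on depth, which was 16251.5 UMIs per cell (median) in AT2-like, 7960 in dendritic-like, 3960 in B-cell-like, 5425 in T-cell-like, and 2133 in neutrophil-like cells. *H2-Aa* was detected in 98.9 ± 0.508% of AT2-like, 86.5 ± 3.23% of B-cell-like, and 84.5 ± 1.74% of dendritic-like cells, against 2.81 ± 3.68% of T-cell-like and 5.31 ± 3.05% of neutrophil-like cells. Thinned to 1000 UMIs per cell, the shares were 53.7 ± 3.35%, 70.1 ± 3.24%, and 88.5 ± 3.72%, against 0.666 ± 0.585% and 2.75 ± 1.39%. The order of the 3 presenting types turned with thinning and then followed the CPM. Thinning left out 35 dendritic-like cells under 1000 UMIs, 53 neutrophil-like, 5 B-cell-like, 2 AT2-like, and no T-cell-like cells.

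In single cells, all 3 classical chains were found together in 92.2% to 95.9% of AT2-like cells of a mouse. The same share was 77.1% to 82.7% in B-cell-like, 77.3% to 83.6% in dendritic-like, and at most 1.45% in T-cell-like and neutrophil-like cells. *Cd74* reached at least 10 UMIs in 97.4% of AT2-like cells, and the tenth of these cells with the most *Cd74* held 21.3% of its UMIs. Class II was thus spread over nearly all AT2-like cells. In T-cell-like cells 76.6% of the *Cd74* UMIs lay in the 4 cells marked as doublets, and in neutrophil-like cells 78.3% lay in 20 such cells.

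**Figure D2:**
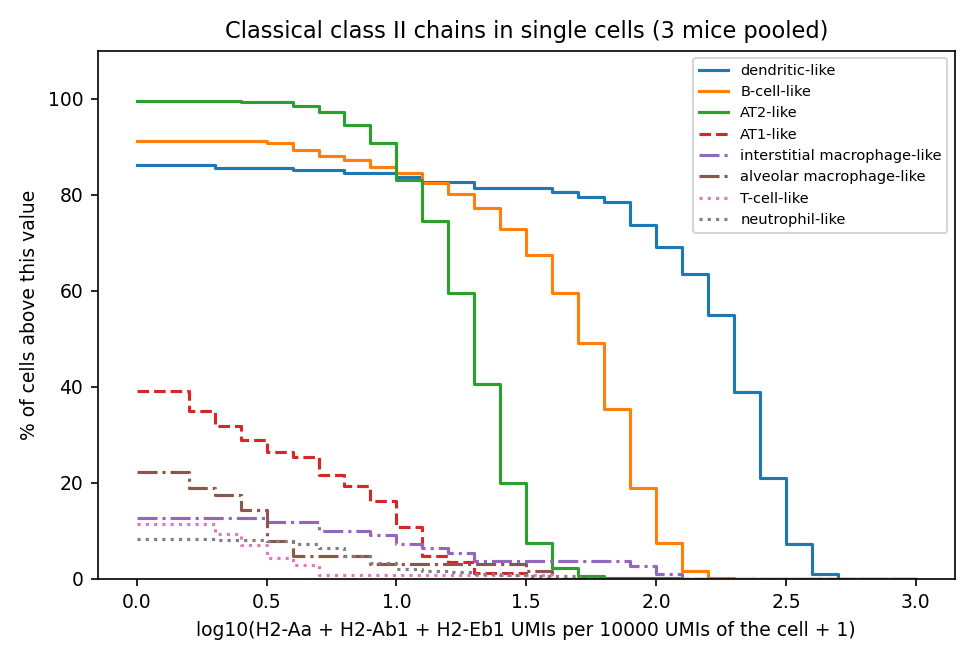
Share of cells (y axis, %) whose *H2-Aa*, *H2-Ab1*, and *H2-Eb1* UMIs per 10000 UMIs of the cell, as log10(value + 1), exceed the value on the x axis, with the cells of 3 mice pooled by type. The AT2-like line stays near the top at low values and falls first, the dendritic-like line reaches furthest right, and T-cell-like and neutrophil-like cells start at 11.4% and 8.39%.

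The question of the first comparison was how far class II stood above the background of a cell type without it. All 9 genes were higher in B-cell-like than in T-cell-like cells (edgeR quasi-likelihood test, adjusted *P* under 0.05), where 23.2% of 12452 tested genes were called, 13.9% higher and 9.39% lower. The median log2 fold change was 5.58 for the 9 genes and 0.21 for all genes. *Cd74* was at 9536, 8557, and 8181 CPM in B-cell-like and at 38.3, 234, and 24.7 CPM in T-cell-like cells. Mouse 3 had the most in T-cell-like cells, and the groups were far from overlapping (log2 fold change 6.55 ± 0.95 SE, adjusted *P* = 1.04e-07). *Ciita* was at 76.9, 71.2, and 61.4 CPM in B-cell-like cells, and no UMI was found in 140 T-cell-like cells, which allows up to 3.56 CPM. *Ciita* was therefore at least 19.6-fold higher in B-cell-like cells. The smallest change was that of *H2-Oa* (log2 fold change 3.35 ± 0.33 SE, adjusted *P* = 7.97e-12), which was also found in 11.2 ± 4.66% of T-cell-like cells.

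B-cell RNA was also found in other cell types. The 8 B-cell markers summed to 638 to 1088 CPM in T-cell-like cells and 323 to 641 CPM in neutrophil-like cells. If these markers came with *Cd74* there at the ratio of B-cell-like cells, they would bring 314% of the *Cd74* UMIs counted in T-cell-like and 110% of those in neutrophil-like cells. These shares depended on the genes used, and with a subset of 4 of the markers they were lower in T-cell-like, endothelial, and stromal cells. In AT2-like cells the same calculation with all 8, added after seeing the data, gave 0.813%, and the B-cell markers summed to 49.5 to 84.7 CPM. Dendritic-cell markers in AT2-like cells were at 4.63 to 14.1 CPM, and *C1qa*, *C1qb*, and *C1qc*, the complement genes of macrophages, were at 0. The part of such RNA in the levels of T-cell-like and neutrophil-like cells was not tested.

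Between the professional types, the accessory genes split. Dendritic-like cells exceeded B-cell-like cells in 6 of the 9 genes and were lower in 2, *H2-Oa* and *H2-Ob*, where 42.4% of all tested genes were called, 20.5% higher and 21.9% lower. Among the 9 genes the rise was largest for *H2-DMb1* (log2 fold change 2.32 ± 0.18 SE, adjusted *P* = 4.56e-16) and *H2-Ab1* (2.01 ± 0.42 SE, adjusted *P* = 6.62e-05). *H2-DMb2*, a near-identical neighbor of *H2-DMb1*, went the other way (-1.56 ± 0.21 SE), so the rise of *H2-DMb1* does not hold for both genes. *Cd74* was at 18224, 17174, and 14183 CPM in dendritic-like cells. These values lay above all those of B-cell-like cells, but *Cd74* did not pass the test (log2 fold change 0.87 ± 0.71 SE, adjusted *P* = 0.360). Its SE came from the spread of *Cd74* in all named types fitted together, not in these 2 types alone. *Ciita* was at 104, 144, and 110 CPM, above every B-cell-like value, and 1.70 times as high on average (log2 fold change 0.74 ± 0.19 SE, adjusted *P* = 0.00164). Without mouse 3 the *Ciita* call was lost (adjusted *P* = 0.0604), as was that of *H2-Aa* with DESeq2 (adjusted *P* = 0.123).

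*H2-Ob*, the β chain of the H2-DM inhibitor, was at 498, 523, and 466 CPM in B-cell-like cells and at 80.8, 92.7, and 66.6 CPM in dendritic-like cells. Every B-cell value was above every dendritic value (log2 fold change -2.66 ± 0.20 SE, adjusted *P* = 5.35e-17). Its partner *H2-Oa* was lower in dendritic-like cells by less (81.3 ± 5.76 against 162 ± 11.4 CPM, log2 fold change -1.04 ± 0.20 SE, adjusted *P* = 2.82e-05). In AT2-like cells *H2-Oa* was at 0.299, 0.439, and 0.759 CPM and *H2-Ob* at 0.299, 1.97, and 2.13 CPM, which are 9 and 25 UMIs in 1070 cells. The means in T-cell-like cells were higher (18.3 ± 6.03 and 13.7 ± 11.9 CPM). H2-O UMIs per 100 UMIs of *H2-DMa* and *H2-DMb1* were 161, 174, and 156 in B-cell-like cells, 9.17, 10.6, and 12.1 in dendritic-like cells, and 0.317, 1.35, and 1.71 in AT2-like cells. With *H2-DMb2*, a second gene for the β chain, counted as well (added after seeing the data), they were 96.9, 103, and 93.0 in B-cell-like, 8.61, 9.97, and 11.6 in dendritic-like, and 0.313, 1.34, and 1.69 in AT2-like cells. The 3 types did not overlap under either count.

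H2-DM itself was present in all 3. *H2-DMa* was at 923 ± 200 CPM in dendritic-like, 281 ± 15.9 CPM in B-cell-like, and 66.7 ± 3.01 CPM in AT2-like cells. *H2-DMb1* was at 624 ± 139, 120 ± 3.36, and 112 ± 7.08 CPM. B-cell-like and AT2-like cells, apart for *H2-DMa*, overlapped in *H2-DMb1*, and AT2-like cells held 47.4 ± 11.6% of its UMIs. *H2-DMb1* has a near-identical neighbor, *H2-DMb2*, so counts of the pair may have been split or dropped. *H2-DMb2* UMIs per 100 *H2-DMb1* UMIs were 226 ± 7.06 in B-cell-like, 14.7 ± 2.62 in dendritic-like, and 1.72 ± 0.373 in AT2-like cells. With both β genes summed, UMIs per 100 *H2-DMa* UMIs were 140 ± 8.02, 77.5 ± 2.86, and 170 ± 5.34. With *H2-DMb1* alone they were 42.9 ± 3.38, 67.6 ± 2.61, and 168 ± 5.22. The order of B-cell-like and dendritic-like cells therefore depended on whether *H2-DMb2* was included.

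**Figure D3:**
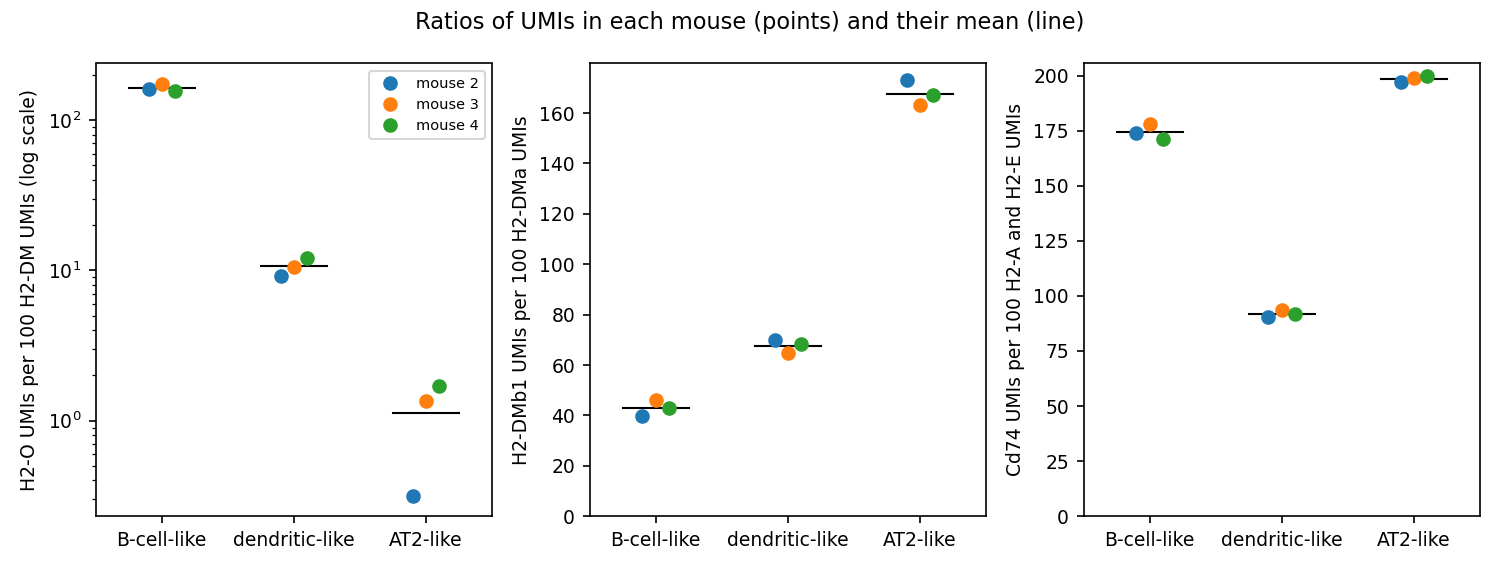
Ratios of UMIs in each mouse (points) with their mean (line) in B-cell-like, dendritic-like, and AT2-like cells, for H2-O per 100 H2-DM (*H2-DMa* and *H2-DMb1*, log scale), *H2-DMb1* per 100 *H2-DMa*, and *Cd74* per 100 UMIs of the classical chains. H2-O per H2-DM is 164 in B-cell-like (97.6 with *H2-DMb2* counted) and 1.13 in AT2-like cells, and no mouse crosses between types in any panel.

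Among the other genes of the pathway, the relatives *H2-Eb2* and *H2-DMb2* were both lower in dendritic-like than in B-cell-like cells (log2 fold change -1.67 and -1.56). The 6 lysosomal processing genes rose in 3 cases and fell in none, with *Ctsb* at 1.86 and *Ctss*, the protease that trims the invariant chain, at 0.93. Of 6 surface turnover and co-stimulation genes, 4 rose and 2 fell, led by *Cd80* (3.35), *March8* (2.77), and *Cd86* (1.77). *Rfx5*, an X-box binding factor, was lower (-1.43). The list medians were -1.61, 0.67, and 1.74 for relatives, processing, and surface genes, and -0.10 for all genes.

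Within B-cell-like cells the classical chains were higher in the cells with the marker of mature cells, and *Cd74* did not pass the test. Cells with a UMI of *Fcer2a*, the CD23 gene of mature follicular B cells, and none of *Vpreb3*, a gene of immature B cells (325 cells), were compared with cells of the opposite pattern (772 cells). The median depths were close, with 4118 and 3649 UMIs. Of the 9 genes, 8 were higher in the *Fcer2a*-type cells, where 11.3% of 6867 tested genes were called, 6.15% higher and 5.17% lower. The median log2 fold change was 0.81 for the 9 genes and 0.00 for all genes.

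*H2-Eb1* changed most. It was at 2145, 1974, and 1885 CPM in *Fcer2a*-type and 1039, 908, and 977 CPM in *Vpreb3*-type cells, with no overlap (log2 fold change 1.14 ± 0.11 SE, adjusted *P* = 1.10e-19). *H2-Aa* and *H2-Ab1* rose by 1.08 and 0.98 on the log2 scale, and the accessory genes by less, from 0.55 (*H2-DMa*) to 0.89 (*H2-Ob*). *Ciita* was at 96.0 ± 4.75 and 59.2 ± 5.14 CPM (log2 fold change 0.78 ± 0.19 SE, adjusted *P* = 0.000813). Under the stricter filter on cells, the calls of *Ciita* and *H2-DMb1* were lost (adjusted *P* = 0.477 and 0.192), as was that of *H2-Oa* without mouse 3 (adjusted *P* = 0.0603).

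*Cd74* was at 10466, 9042, and 8128 CPM in *Fcer2a*-type and 9315, 8411, and 8155 CPM in *Vpreb3*-type cells. The ranges overlapped, and the difference did not pass the test (log2 fold change 0.20 ± 0.11 SE, adjusted *P* = 0.305), whereas with the mouse as a block it did (0.19, adjusted *P* = 0.0178). *Cd74* UMIs per 100 UMIs of classical chains were 142, 131, and 125 in *Fcer2a*-type and 244, 249, and 233 in *Vpreb3*-type cells, which did not overlap. Both types carried *Cd74* in nearly every cell (100% and 98.5%), whereas *H2-Aa* was found in 96.2% and 75.7%. Cells with both marker genes (433 cells) had *H2-Aa* at 2197 ± 134 CPM and cells with neither (253 cells) at 1740 ± 116 CPM, both between the 2 types. *H2-DMb2* (0.56) and *H2-Eb2* (2.32) rose as well, and of 4 tested surface genes *March1* (1.11), a ubiquitin ligase that removes class II from the surface, and *Cd83* (1.01), which opposes it, rose. *Ifi30*, the thiol reductase of antigen processing, fell by 1.17 on the log2 scale.

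Dendritic-like cells were divided by UMIs of subset genes into cDC1-type (63 cells), cDC2-type (78 cells), mature-type (15 cells), and plasmacytoid-type cells (4 cells), and 35 cells were left unassigned. Conventional type 1 dendritic cells are known for cross-presentation on class I, and type 2 cells for presentation to CD4+ T cells. The classical chains did not pass the test between cDC1-type and cDC2-type cells, and 2 of the 9 genes were called, with 16.4% of 3165 tested genes called, 7.96% higher and 8.40% lower. *H2-Ab1* was at 9062, 7882, and 9235 CPM in cDC1-type and 8499, 8065, and 6946 CPM in cDC2-type cells. These ranges overlapped (log2 fold change 0.25 ± 0.13 SE, adjusted *P* = 0.234). *H2-Aa* was at 6612, 6164, and 7263 CPM against 5566, 6105, and 5562 CPM, with no overlap but no call (log2 fold change 0.31 ± 0.12 SE, adjusted *P* = 0.0987). *Cd74* was at 17129 ± 850 and 18672 ± 943 CPM (log2 fold change -0.03 ± 0.12 SE, adjusted *P* = 0.912).

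*H2-Ob* differed most, at 114, 185, and 135 CPM in cDC1-type and 54.1, 63.5, and 31.8 CPM in cDC2-type cells. All cDC1-type values were higher (log2 fold change 1.53 ± 0.29 SE, adjusted *P* = 0.000987), on 87 and 41 UMIs. *H2-Oa* lay the other way in every mouse (70.7 ± 10.9 and 103 ± 14.0 CPM) but did not pass the test (log2 fold change -0.42 ± 0.27 SE, adjusted *P* = 0.364). *Ciita* was higher in cDC1-type cells (182 ± 48.5 and 102 ± 22.5 CPM, log2 fold change 0.86 ± 0.26 SE, adjusted *P* = 0.0275). That call was lost with DESeq2 (adjusted *P* = 0.108), with library size in place of TMM (0.0623), and without mouse 3 (0.121) or mouse 4 (0.104).

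Other pathway genes differed between the subsets as well. All 4 tested lysosomal processing genes were lower in cDC1-type cells, led by *Lgmn* (log2 fold change -2.15), *Ifi30* (-1.39), and *Ctss* (-1.13), as was *H2-DMb2* (-2.25). Of 8 tested class I presentation genes, 4 were higher and 1 lower, led by the immunoproteasome subunit *Psmb9* (2.20) and the peptide transporter genes *Tap2* (1.64) and *Tap1* (1.44). *Irf8*, the factor that specifies cDC1 cells, was higher by 5.84 on the log2 scale. The mature-type cells gave a sum of at least 5 cells in mouse 4 alone, so no test was run. Their *H2-Ab1* level was 6956 and 4029 CPM in mice 2 and 3, with 3 cells each, and 421 CPM in the 9 cells of mouse 4. The 4 plasmacytoid-type cells held 11 *H2-DMa* and 13 *Cd74* UMIs and none of the other 7 genes.

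**Figure D4:**
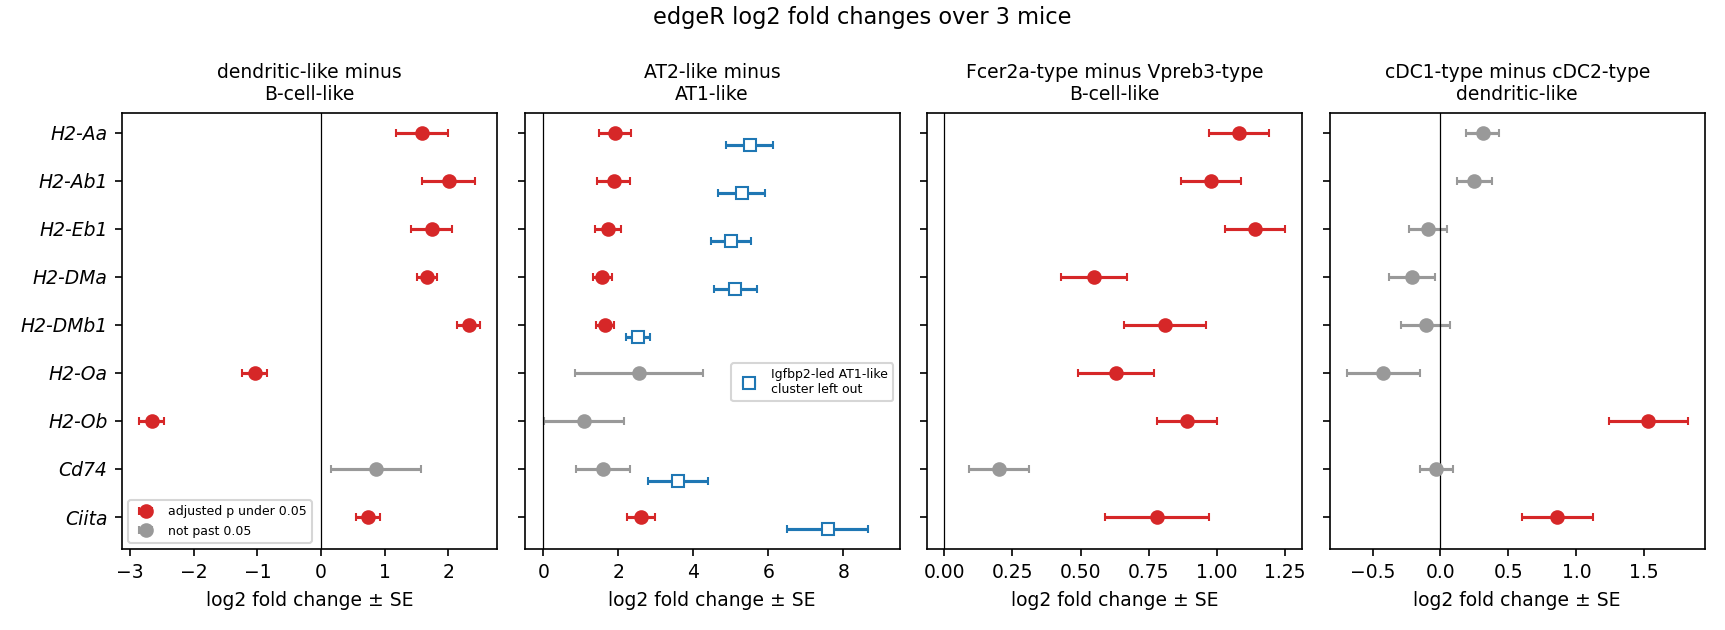
Log2 fold changes (x axis, points, with SE as bars) of the 9 genes (rows) in 4 comparisons by edgeR over 3 mice, red where the adjusted *P* was under 0.05, gray where it was not, and open squares where the *Igfbp2*-led AT1-like cluster was left out. *H2-Oa* and *H2-Ob* lie left of 0 in the first panel, and the classical chains lie near 1 in the third.

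Alveolar epithelium was the main class II site outside the immune cells. In AT2-like cells *Cd74* was at 3780, 3610, and 3197 CPM and *H2-Aa* at 888, 839, and 753 CPM. *Ciita* was at 19.1, 18.2, and 19.7 CPM, and 26.3 ± 0.740% of cells had a UMI of it (1.98 ± 0.137% when thinned), against none of 140 T-cell-like and 0.227 ± 0.393% of neutrophil-like cells. The 3 mice were close for each of these genes. *Ciita* UMIs per 100 *H2-Ab1* UMIs were 3.30 ± 0.513 in AT2-like, 3.94 ± 0.257 in B-cell-like, and 1.64 ± 0.372 in dendritic-like cells. AT2-like and B-cell-like cells overlapped in this ratio, and dendritic-like cells lay below both.

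AT1-like cells are named for the flat cells of gas exchange. Of the 9 genes, 6 were higher in AT2-like than in AT1-like cells and none lower, where 33.3% of tested genes were called, 17.2% higher and 16.2% lower. *H2-Aa* was at 280, 232, and 262 CPM in AT1-like cells, below every AT2-like value (log2 fold change 1.92 ± 0.43 SE, adjusted *P* = 0.000274). *Ciita* had the largest change (19.0 ± 0.772 against 3.36 ± 1.21 CPM, log2 fold change 2.60 ± 0.38 SE, adjusted *P* = 5.86e-07). *Cd74* was at 1499, 1484, and 1174 CPM in AT1-like cells. It was lower there in every mouse but did not pass the test (log2 fold change 1.60 ± 0.72 SE, adjusted *P* = 0.0848), whereas with the mouse as a block it did (adjusted *P* = 0.0363), as with marked doublets removed (adjusted *P* = 0.0385). Here too the *Cd74* SE came from all named types fitted together. The *Ciita* call was lost with cells with immune RNA left out (log2 fold change 6.19 ± 2.53 SE, adjusted *P* = 0.102). With DESeq2 the calls of *H2-Aa* and *H2-Ab1* were lost (adjusted *P* = 0.0919 and 0.0902).

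The AT1-like values rested on 1 of the 2 AT1-like clusters, with 692 of the 722 *H2-Aa* UMIs. The *Igfbp2*-led cluster (37 cells, median 35994 UMIs) carried the 8 AT2 markers at 114957 CPM beside AT1 markers at 12630 CPM. The *Ndnf*-led cluster (129 cells, median 6208 UMIs) carried AT2 markers at 2375 CPM and AT1 markers at 23713 CPM. *H2-Aa* was at 568, 362, and 429 CPM in the *Igfbp2*-led cluster and at 41.3, 21.0, and 9.51 CPM in the *Ndnf*-led cluster, so the 2 did not overlap. *Cd74* was at 2805, 2048, and 1790 CPM and at 413, 567, and 245 CPM, respectively.

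Without the *Igfbp2*-led cluster, an alternative added after seeing the data, 7 genes were higher in AT2-like cells. The share of all genes called given above, 33.3%, belongs to the fit with that cluster. The log2 fold change was then 5.50 ± 0.62 SE for *H2-Aa* (adjusted *P* = 7.11e-11) and 3.58 ± 0.80 SE for *Cd74* (adjusted *P* = 0.000236). *Cd74* remained detected in 53.7 ± 3.44% of *Ndnf*-led cells (24.4 ± 4.76% when thinned), above T-cell-like (14.9 ± 4.81% and 3.90 ± 1.62%) and neutrophil-like cells (9.71 ± 1.37% and 5.98 ± 1.30%), whereas *H2-Aa* was in 11.2 ± 2.60%. No *Ciita* UMI was found in those 129 cells.

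**Figure D5:**
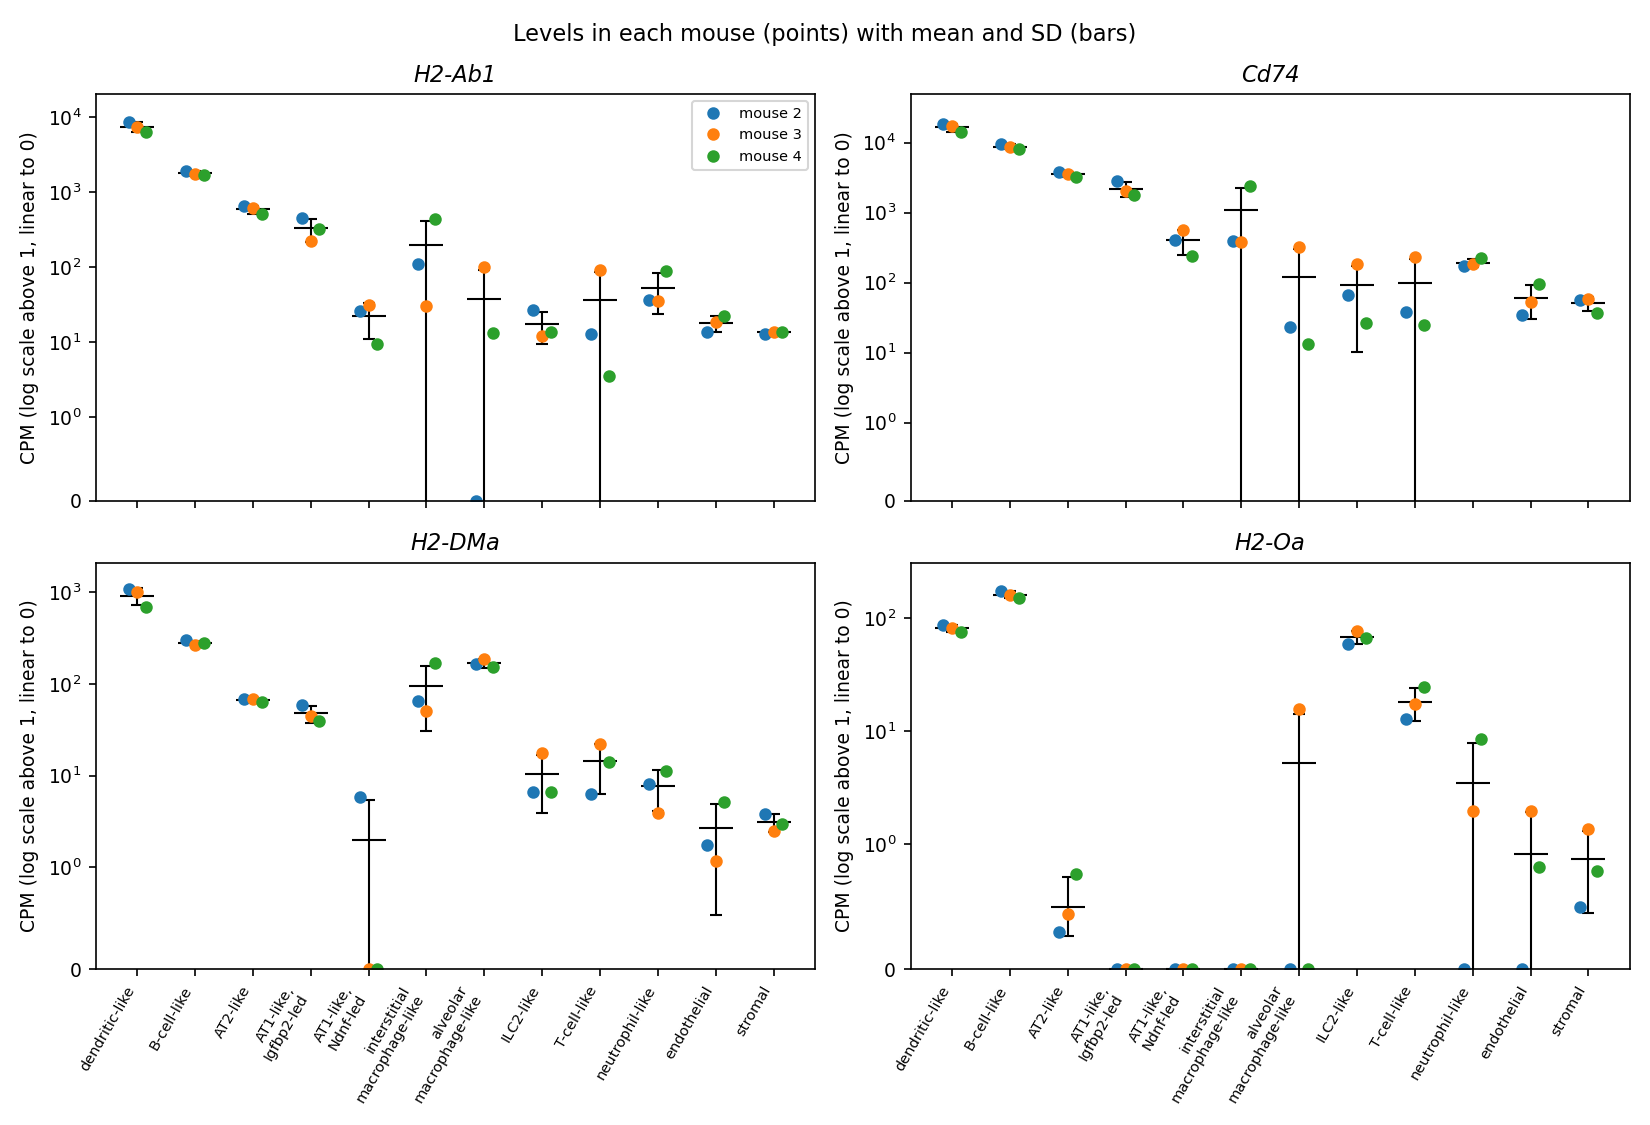
CPM of *H2-Ab1*, *Cd74*, *H2-DMa*, and *H2-Oa* in each mouse (points), with mean (dash) and SD (bar), in 12 groups of cells on an axis that is logarithmic above 1 and linear to 0. The *Ndnf*-led AT1-like cells lie below the *Igfbp2*-led ones for *H2-Ab1* and *Cd74*, mouse 4 lies apart in interstitial macrophage-like cells, and ILC2-like cells are near 68 CPM for *H2-Oa*.

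Against stromal cells, taken as non-presenting cells of the same lungs, epithelial cells were higher in 7 of the 9 genes, with 67.4% of 14233 genes called, 31.6% higher and 35.8% lower. The median log2 fold change was 5.51 for the 9 genes and -0.06 for all genes. *Cd74* was at 3141, 3032, and 2569 CPM in epithelial and 56.5, 59.5, and 37.1 CPM in stromal cells, with no overlap (log2 fold change 6.19 ± 0.32 SE, adjusted *P* = 2.08e-10). *H2-DMb1* had a change of like size (92.6 ± 8.70 against 1.88 ± 0.250 CPM, log2 fold change 5.96 ± 0.21 SE, adjusted *P* = 2.93e-12). *H2-Oa* and *H2-Ob* were at 0.459 ± 0.295 and 1.67 ± 1.05 CPM in epithelial cells, and neither passed the test (adjusted *P* = 0.541 and 0.435). When cells with a UMI of any gene of the immune-cell marker lists were left out, 153 of 1332 epithelial cells remained and the 7 calls held, with *Cd74* at a log2 fold change of 8.68.

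The other pathway genes were split in the epithelium. *Ifi30* rose by 2.92 (log2) in epithelial cells and was at 303 ± 16.2 CPM in AT2-like cells, while 3 of 6 lysosomal genes fell, led by *Ctsl* (-2.04). *Ctss* was at 3.69 ± 3.09 CPM in AT2-like, 299 ± 22.3 CPM in B-cell-like, and 589 ± 83.5 CPM in dendritic-like cells. *Cd80* had no UMI and *Cd86* 2 UMIs in 1070 AT2-like cells, and *Cd40* was at 0.421 ± 0.256 CPM. *March1* was at 0.523 ± 0.470 CPM there and at 172 ± 3.26 CPM in B-cell-like cells. Of 9 class I genes, 6 rose and 1 fell, led by *H2-K1* (2.57) and *H2-D1* (2.35). *Irf8* fell by 2.62 on the log2 scale.

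Club-like cells, of the airway, had far less class II than AT2-like cells (*Cd74* 354, 35.4, and 116 CPM). Of these 96 cells 49 had under 1000 UMIs and 14 were marked as doublets, and no test was run.

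Interstitial and alveolar macrophage-like cells held little class II, and it was uneven between mice and cells. *Cd74* was at 401, 385, and 2445 CPM in interstitial and at 23.7, 327, and 13.3 CPM in alveolar macrophage-like cells. Mouse 4 stood far above the others in the first group and mouse 3 in the second. The 7 alveolar macrophage markers of the second group summed to 34609, 9393, and 26982 CPM in mice 2, 3, and 4, lowest in mouse 3. *Cd74* was the 1 gene of 9 called (log2 fold change 2.78 ± 0.91 SE, adjusted *P* = 0.0296), where 14.7% of tested genes were called, 7.48% higher and 7.24% lower. Without mouse 4 the change was 0.68 (adjusted *P* = 0.895). Without mouse 3, 4 of the 9 genes were called, while the 14.7% of all genes belongs to the fit of all 3 mice. The tenth of interstitial macrophage-like cells with the most *Cd74* (11 of 110 cells, taken from 12 with at least 3 UMIs) held 92.5% of its UMIs and 94.8% of the *H2-Aa* UMIs. All 110 cells together carried the 7 interstitial macrophage markers at 5306 to 8126 CPM and 4 of 9 dendritic-cell markers at 97.7 to 152 CPM in sum, with *Cd209a*, *Clec9a*, *Xcr1*, *Ccr7*, and *Itgae* at 0. B-cell markers were at 161 to 274 CPM, with *Cd79a*, *Ms4a1*, *Pax5*, and *Ebf1* at 0. Of the 7 alveolar macrophage markers 2 were detected, *Chil3* and *Ear2*, at 391 to 548 CPM in sum. The part of any of these in this result was not tested. Monocyte markers were also used in naming, but no cluster was named for monocytes, and whether this group holds any was not tested.

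*H2-DMa* was found in most alveolar macrophage-like cells (63 cells, 12 of them in mouse 2). It was at 166, 187, and 152 CPM and in 65.2 ± 9.07% of cells (17.9 ± 4.57% when thinned), against 5.64 ± 2.70% of T-cell-like cells (1.24 ± 0.480%). Its partner *H2-DMb1* was at 23.7, 88.3, and 46.4 CPM there, from 27 UMIs, against 5.80 ± 10.0 CPM in T-cell-like cells. *H2-Ab1* was at 0, 98.7, and 13.3 CPM in the alveolar macrophage-like cells. The mice were close in *H2-DMa* but not in *H2-Ab1*, which was high in mouse 3. The B-cell markers of these cells summed to 556 CPM in mouse 3, against 39.4 and 6.63 CPM in mice 2 and 4. The part of B-cell RNA in these levels was not tested. In interstitial macrophage-like cells *H2-DMa* was at 65.1, 50.7, and 168 CPM, a range that overlapped (log2 fold change -0.99 ± 0.40 SE, adjusted *P* = 0.0878; without mouse 4 -1.97, adjusted *P* = 0.00659). *Ciita* had no UMI in 63 alveolar and 110 interstitial macrophage-like cells, which allows up to 6.38 and 8.98 CPM. It was at least 19.1-fold and 13.6-fold higher in dendritic-like cells. *Ctss* reached 3515 ± 520 CPM in alveolar macrophage-like cells.

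*H2-Oa* was found with few classical chains in innate lymphoid and basophil- or mast-cell-like cells. In ILC2-like cells (65 cells), the type 2 innate lymphoid cells of the lung, it was at 59.2, 77.5, and 67.0 CPM, next to dendritic-like cells (86.7, 82.1, and 75.2 CPM). The ranges of the 2 types overlapped. The ILC2-like levels rest on 9, 13, and 10 UMIs. A UMI of *H2-Oa* was in 33.7 ± 3.31% of ILC2-like cells (6.30 ± 1.77% when thinned) against 11.2 ± 4.66% (1.54 ± 0.297%) of T-cell-like and 0.608 ± 0.692% (0.215 ± 0.218%) of neutrophil-like cells, at a median of 6612 UMIs. Its partner *H2-Ob* had 1 UMI in these 65 cells. B-cell markers there summed to 118, 626, and 154 CPM, and both they and *H2-Oa* were highest in mouse 3. The part of B-cell RNA in the *H2-Oa* level was not tested.

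Basophil- or mast-cell-like cells (44 cells, 6 of them in mouse 2) had *H2-Oa* at 39.4, 96.4, and 165 CPM, from 1, 10, and 10 UMIs. They had no UMI of *H2-Aa*, which allows up to 15.8 CPM. Of their 8 B-cell markers, 6 were at 0, and the part of B-cell RNA in their *H2-Oa* level was not tested. NK-cell-like cells had 20.9 ± 10.1 CPM of *H2-Oa*, overlapping T-cell-like cells. No test of these types was planned, so the values are a description.

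Endothelial and stromal cells were near the background. *Cd74* was at 34.9, 52.7, and 94.8 CPM in endothelial cells, overlapping stromal cells (log2 fold change 0.15 ± 0.27 SE, adjusted *P* = 0.686). Without mouse 4 the direction turned and *Cd74* was called lower in endothelial cells (-0.54, adjusted *P* = 0.0446), and it also turned under the stricter cell filter (-0.05) and with cells holding B-cell or leukocyte UMIs left out (-0.32), neither past the threshold. Of the 9 genes 1 was called higher, *Ciita*, with 55.4% of all genes called, 24.5% higher and 31.0% lower. It was at 0.293, 1.95, and 1.37 CPM in endothelial and 0.333, 0.385, and 0.157 CPM in stromal cells, which are 11 and 5 UMIs in 960 and 1542 cells. The groups overlapped (log2 fold change 1.80 ± 0.66 SE, adjusted *P* = 0.0297). The call was lost without mouse 3 (adjusted *P* = 0.171), without mouse 4 (0.239), and with marked doublets removed (0.0724). At the B-cell ratio of the 8 B-cell markers, 112% of the endothelial and 213% of the stromal *Cd74* UMIs counted would come with them.

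All 9 class I presentation genes, in contrast, were higher in endothelial than in stromal cells, led by *Psmb9* (log2 fold change 3.52), *Psmb8* (3.20), and *H2-D1* (2.94). The list median was 2.53, against 0.26 for the 9 class II genes and -0.06 for all genes. Of the 9 genes that lead from interferon gamma to *Ciita*, 5 were higher in endothelial cells, among them *Irf1* (1.66), and 1 was lower, *Irf8* (-2.16).

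None of the 9 genes passed the threshold in edgeR between the 2 kinds of lung capillary, *Car4*-type (171 cells) and *Aplnr*-type (524 cells). No gene had an unadjusted *P* under 0.05 other than *H2-DMa* (0.0226, adjusted *P* = 0.155), whose 10 UMIs in *Car4*-type cells were all in mouse 4 (0, 0, and 19.0 CPM) and whose log2 fold change turned from 2.05 to -2.84 without that mouse. Of all tested genes 8.49% were called, 4.04% higher and 4.45% lower. With DESeq2, 1 of the 9 genes was called, while the 8.49% of all genes belongs to the edgeR fit. *Cd74* was at 23.5, 69.3, and 244 CPM in *Car4*-type and 22.9, 44.0, and 48.8 CPM in *Aplnr*-type cells. The *Car4*-type cells of mouse 4 stood apart, and their B-cell markers also differed between mice (40.5, 259, and 590 CPM). Venous-like cells had *H2-Aa* at 8.76, 61.3, and 70.8 CPM beside B-cell markers at 63.5, 354, and 175 CPM.

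Across the 21 types, mean levels on a log2(CPM + 10) scale correlated most for *H2-Ab1* and *H2-Eb1* (*r* = 0.993) and least for *H2-Oa* and *Cd74* (*r* = 0.309). The types share libraries and background RNA, so these are descriptions with no test. Among 8751 genes with enough signal, those outside the 9 whose pattern was nearest were *Fgd2* for *H2-Aa* (*r* = 0.877), *H2-Ab1* (0.904), *H2-Eb1* (0.920), and *Cd74* (0.883). *Ifi30* was nearest to *H2-DMa* (0.937) and *H2-DMb1* (0.888), *P2ry10* to *H2-Oa* (0.877), *Fcrla* to *H2-Ob* (0.963), and *Kmo* to *Ciita* (0.935).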

How the data were processed

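The authors made 10x Genomics 3′ v3 libraries and processed them with Cell Ranger (3.0.2; build mm10, per the labels), and the deposited values are raw UMI counts per gene and cell. Genes that overlap or resemble each other can lose counts at that step. Cells under 200 genes or over 20% mitochondrial UMIs, 2002 in all, were left out, and doublets were marked with scanpy (1.11.5) but kept. Cells were clustered with Seurat (5.3.0; sctransform 0.4.2; 30 principal components; resolution 0.8) without the 9 genes and named from marker lists, by thresholds set after the clusters were seen. UMIs were summed per mouse and group of at least 10 cells (5 for dendritic subsets) and tested in edgeR (4.0.16; glmQLFTest, a quasi-likelihood test; TMM, filterByExpr, Benjamini-Hochberg over all genes tested, threshold 0.05). All named types shared a fit, as did the classes, so the spread of a gene was estimated over all groups of the fit. The B-cell and dendritic subsets were fitted apart. The SE of an edgeR log2 fold change is its absolute value divided by the square root of the quasi-likelihood F statistic. The tests were checked on simulated data. Members, lists, and comparisons were chosen with earlier results of these data known. The 9 genes are named throughout, and of each list at most 3 called genes with the largest change, while the levels of list genes within cell types were picked after their values were seen. Same-numbered sums come from the same animal. Their deviations from the group means correlated with *r* = -0.0959 to 0.267 over 570 pairs of types, and the block fit uses the mouse number. No pair of libraries was a copy (chi-square per degree of freedom 8.68 to 36.0). Alternatives were DESeq2 (1.42.0), library size, no filter on low counts, stricter cells, resolutions 0.4 and 1.2, members among the clustering genes, doublets or cells with immune RNA left out, and each mouse left out. Limits for 0 counts use 3 UMIs and cover counting error only.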

Additional observations from a re-analysis of the deposited data

Results flagged for a closer look

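The 2002 cells that the filter left out, at a median of 1734 UMIs and outside every comparison above, still held UMIs of all 9 genes, which is what singled them out. They held 1577 UMIs of *H2-Aa*, 2121 of *H2-Ab1*, 1412 of *H2-Eb1*, 289 of *H2-DMa*, 228 of *H2-DMb1*, 120 of *H2-Oa*, 414 of *H2-Ob*, 6319 of *Cd74*, and 113 of *Ciita*. *Cd74* was found in 25.4% of these cells and *Ciita* in 4.15%. By mouse, *Cd74* was at 1244, 1612, and 1044 CPM in them. These cells were not assigned to types.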

How the results depend on the processing

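Across these alternatives most calls held. The cause of the exceptions was not tested. Of the values for single genes under the alternatives, 604 kept their status, whether called or not called, 31 gained a call, 16 lost it, and 10 turned direction. Those that turned were, between macrophage-like types without mouse 4, *H2-Aa* (-0.08), *H2-Ab1* (-0.10), and *H2-Eb1* (-0.57), which without mouse 3 were 4.57, 5.11, and 4.11; between capillaries, *H2-Eb1* (-0.54), *H2-DMa* (-0.54), and *Cd74* (-0.12) with cells holding B-cell or leukocyte UMIs left out (added after seeing the data), and *H2-DMa* (-2.84 without mouse 4 and 2.67 without mouse 3); and, for endothelial against stromal cells, *Cd74* without mouse 4 (-0.54, edgeR adjusted *P* = 0.0446, against 0.51 without mouse 2), under the stricter filter (-0.05), and with cells holding B-cell or leukocyte UMIs left out (-0.32). With the mouse as a block no call changed but those of *Cd74* given above (AT2-like against AT1-like, adjusted *P* = 0.0363, and B-cell subsets, 0.0178).

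Members called between macrophage-like types were 2 with DESeq2, 3 with library size, and 6 with no filter on low counts, and between capillaries 1 with DESeq2 and 2 with no filter. For endothelial against stromal cells they were 2 with DESeq2, library size, no filter, stricter cells, or cells with B-cell or leukocyte UMIs left out, and 0 with immune RNA left out; for cDC1-type against cDC2-type they were 1 with DESeq2 or library size. For most of these settings the share of all genes called is not given here, so these counts of members cannot be told from a general change in calls. Over all genes, leaving out cells with immune RNA gave 1443 calls for AT2-like against AT1-like, 67 for capillaries, 4108 for epithelial, and 2288 for endothelial against stromal cells. B-cell subsets gave 368 calls with DESeq2 and 318 with stricter cells, and dendritic subsets 329 with DESeq2 and 864 with no filter. Of the 189 pairs of gene and type, 51 reached 50 CPM (29 with stricter cells) and 60 were found in at least 10% of cells (23 when thinned to 1000 UMIs).

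Leaving out 1 mouse at a time, calls over all genes ranged from 1837 to 2240 for B-cell-like against T-cell-like, 1014 to 1262 for macrophage-like, 2714 to 3668 for AT2-like against AT1-like, 536 to 687 for capillary, 346 to 538 for B-cell subset, and 334 to 544 for dendritic subset comparisons. Members called ranged from 1 to 4 for macrophage-like types, 0 to 3 for endothelial against stromal cells, and 1 to 2 for dendritic subsets. At resolution 0.4 and under the stricter filter some types were not named (dendritic-like and macrophage-like cells among them), and with the 9 genes among the clustering genes T-cell-like cells were not, so their comparisons have no value there. *Ciita* and *H2-Oa* had the fewest UMIs of the 9 genes (1122 and 1534 in kept cells).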
